A study of Mus musculus with 16 samples.

Results

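A set of 10 transcription factors that direct red cell development were followed across the sorted bone marrow of leukemic wild-type (WT) and IL-6 KO mice. They are the GATA factors Gata1 and Gata2, the factor Klf1, Tal1 with its partners Lmo2 and Ldb1, the GATA cofactor Zfpm1, Nfe2, and the repressors Gfi1b and Bach1. The genes were chosen by name. All 10 had a row among the 13344 genes of the stroma table, and 8 had one among the 15080 genes of the tumor table, where Gata1 and Gata2 were not analysed here. C57BL/6J mice of 6 to 8 weeks, either WT or IL-6 KO, received 500000 BCR-ABL+, Arf-/- B-ALL cells carrying mCherry, and bone marrow from femur and tibia was taken 8 days later with no drug given. Red cells were lysed, and live single cells were sorted into mCherry+ leukemia (tumor) and mCherry- cells (stroma). Each of the 4 groups (WT stroma, IL-6 KO stroma, WT tumor, IL-6 KO tumor) held 4 libraries. The leukemia cells themselves were the same in both hosts and were not deleted for Il6 by these labels, so that the genotype is that of the mouse around them. Il6 was not analysed here, so the deletion was not checked in these tables. The labels do not say whether libraries came from separate mice, and p-values measure only the spread between these libraries, which may be technical.

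Red cell development is driven by a small set of DNA-binding proteins that act together. GATA1 binds GATA motifs and, with TAL1, LMO2 and LDB1, forms a complex that joins enhancers to the promoters of globin and heme genes. GATA2 occupies many of the same sites in stem cells, progenitors, mast cells and basophils, and is replaced by GATA1 as red cells mature with the help of ZFPM1 (also called FOG1). KLF1 binds CACCC boxes in the promoters of adult beta globin and many other red cell genes. NFE2 pairs with small MAF proteins, GFI1B represses genes together with LSD1, and BACH1 holds heme and iron genes down until heme binds it. Several of these factors also serve megakaryocytes, mast cells, stem cells or lymphoid leukemia, so none is a marker of red cells alone except, most closely, Klf1.

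The stretches before the start of 4 of these genes are shown because Gata1 and Klf1 varied together among stroma libraries, and because Tal1 and Zfpm1 had the lowest p-values between genotypes there. They were read from RefSeq windows on GRCm38.p6, 5′ to 3′ on the strand of the gene, with capitals marking GATAA, the core of a GATA site, and CACCC, the core of a KLF1 box, found on either strand. Gata1 is at chrX:7967911-7968160 on the minus strand, inside an intron of its longer transcript. Klf1 is at chr8:84901732-84901927, Tal1 at chr4:115056176-115056425 and Zfpm1 at chr8:122281891-122282140, all on the plus strand. None of the 4 stretches overlapped an exon in GENCODE vM21, and that of Zfpm1 lay within the long span of the predicted gene Gm20388.
Gata1: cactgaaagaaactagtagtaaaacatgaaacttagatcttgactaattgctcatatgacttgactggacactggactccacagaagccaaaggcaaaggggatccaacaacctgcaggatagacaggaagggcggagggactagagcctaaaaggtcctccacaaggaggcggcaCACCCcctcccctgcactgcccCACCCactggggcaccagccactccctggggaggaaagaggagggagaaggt
Klf1: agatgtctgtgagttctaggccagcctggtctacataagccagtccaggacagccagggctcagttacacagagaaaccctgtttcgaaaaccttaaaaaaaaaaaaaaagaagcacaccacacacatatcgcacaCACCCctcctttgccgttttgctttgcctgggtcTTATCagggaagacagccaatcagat
Tal1: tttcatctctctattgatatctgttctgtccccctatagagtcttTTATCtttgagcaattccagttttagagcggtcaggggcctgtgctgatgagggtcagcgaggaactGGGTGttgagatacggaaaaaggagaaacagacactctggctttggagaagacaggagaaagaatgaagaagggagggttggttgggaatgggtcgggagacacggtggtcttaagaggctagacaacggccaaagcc
Zfpm1: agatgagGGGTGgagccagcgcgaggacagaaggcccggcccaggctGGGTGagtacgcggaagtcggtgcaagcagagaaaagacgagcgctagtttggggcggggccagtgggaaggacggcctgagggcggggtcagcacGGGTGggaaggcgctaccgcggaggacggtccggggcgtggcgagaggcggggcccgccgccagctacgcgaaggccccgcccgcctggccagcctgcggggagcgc
Gata1 held 2 CACCC and no GATAA, Klf1 and Tal1 held 1 of each, and Zfpm1 held 3 CACCC and no GATAA. In Klf1 the GATAA letters lay on the other strand, 80 bases before the RefSeq start, and the CACCC letters stood 114 bases before it. The Klf1 stretch was cut to 196 bases at an earlier GENCODE start, 84901928, so it stops short of the RefSeq start. RefSeq windows of 300 bases (250 before the start and 50 after it) were found for 8 of the 10 genes, 12 windows in all, and not for Nfe2 or Lmo2. GATAA was present in 4 of these 12 windows, beside 25.4% of all 32851 mouse windows, and CACCC in 9 of 12, beside 57.5%. CAGNTG, the E-box core that TAL1 binds, was found in 4 of 12 (51.4% of all windows), and TGANTCA, the core of NFE2 and BACH1 sites, in 0 (7.81%). These matches describe letters in the windows and not bound sites.

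The libraries set how finely the factors could be read. Values are normalized counts, estimated by salmon and scaled by DESeq2, in which 1 read was worth 0.399 to 3.41 normalized counts depending on the library, so that the stroma libraries held about 11884000 to 41329000 reads and the tumor libraries about 26235000 to 78295000. One noncoding RNA, Rn7s1, took 19.2% to 50.1% of the WT stroma values. In IL-6 KO stroma 1 to 4 it took 78.8%, 71.5%, 79.0% and 10.9%. IL-6 KO stroma 4 had the lowest share of Rn7s1 and held 61.5% in another row, CT010467.1. Every IL-6 KO stroma library thus had a single row with a larger share than Rn7s1 had in any WT library. This difference goes with genotype and cannot be told apart from it, and its part in the fold changes was not tested. The spread within groups was much wider in stroma than in tumor, with a median residual SD of 0.857 against 0.212 on the log2 scale. The stroma was rich in red cell RNA despite the lysis step: 4 globin rows summed to between 67373 and 340800 normalized counts per library, while 4 of 8 mesenchymal and endothelial markers had a row there and summed to between 166 and 1643. The fraction labelled stroma is therefore described as mCherry- marrow. In such bulk samples, fewer cells of a type and less RNA per cell cannot be told apart.

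In stroma, no factor passed the test between IL-6 KO and WT, yet 9 of the 10 had a log2 fold change below 0, where 50.6% of all 12202 genes tested were below 0. The lowest values were those of the cofactor Zfpm1 and of Tal1, the basic helix-loop-helix member of the core complex. Limma called 0 of the 10 at an adjusted p of 0.05 (0.0082% of all genes), and 2 of 10 had an unadjusted p under 0.05 (9.15%). One factor, Zfpm1, had genotypes that did not overlap (5.79% of genes in either direction). On simulated data with the stroma spread, only 66 of 200 genes changed 4-fold were recovered.

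**Figure D1:**
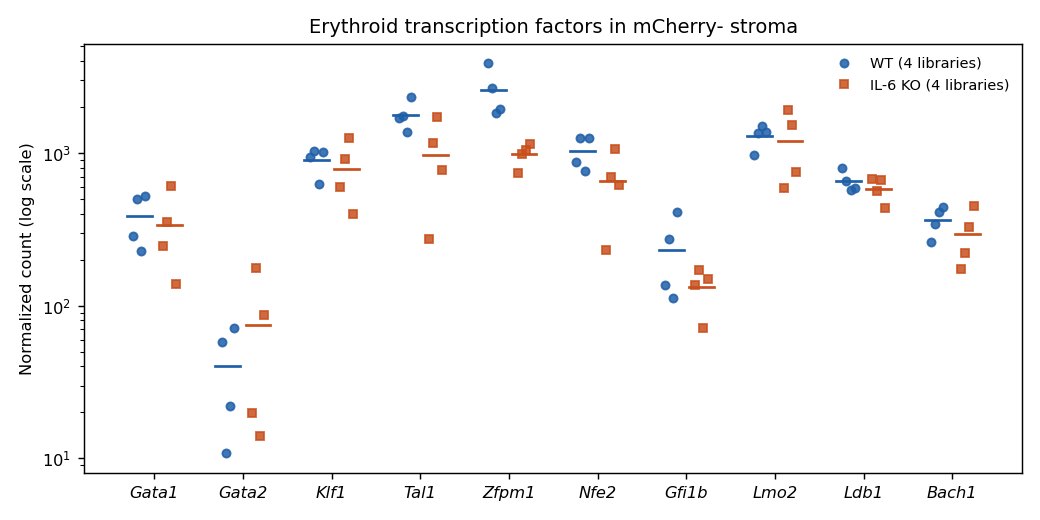
Normalized count (log scale) of the 10 factors in the 8 stroma libraries, WT in blue circles and IL-6 KO in orange squares, with a bar at each group mean. Zfpm1 is the one factor whose genotypes do not overlap, and Gata2 is the lowest factor in both.

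Zfpm1, the cofactor that GATA1 needs in red cells and megakaryocytes, stood at 3849, 2667, 1815 and 1941 normalized counts in WT stroma 1 to 4 and at 735, 990, 1048 and 1152 in IL-6 KO stroma 1 to 4. Every IL-6 KO library was below every WT library, and the highest WT value was that of library 1. The values stood for about 2029 to 6679 reads in WT and 216 to 1008 in IL-6 KO libraries. On the log2 scale IL-6 KO differed from WT by -1.34 (SE 0.32, 95% interval -2.03 to -0.65, limma adjusted p = 0.302), the rank of its p being 41 among 12202 genes. The exact permutation test over libraries gave p = 0.0286, the smallest that 4 against 4 allows. Over single libraries left out, the fold change ran from -1.48 to -1.12 and the limma adjusted p from 0.177 to 0.754. Zfpm1 lies in the span of Gm20388 on the same strand, a row with 0 to 53.7 normalized counts in stroma.

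Tal1 stood at 1704, 1736, 1363 and 2328 normalized counts in the WT libraries and at 271, 1154, 1706 and 769 in the IL-6 KO libraries. The genotypes overlapped through IL-6 KO stroma 3 alone, whose value was above that of WT libraries 1 and 3, while IL-6 KO stroma 1 was the lowest by far. The fitted difference was -1.13 on the log2 scale (SE 0.48, 95% interval -2.16 to -0.090, limma adjusted p = 0.507), and without IL-6 KO stroma 1 it was -0.61.

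Lmo2, the bridge between TAL1 and LDB1, gave 974, 1352, 1491 and 1360 normalized counts in WT and 585, 1917, 1514 and 751 in IL-6 KO stroma. Both the highest and the lowest value were in IL-6 KO libraries, and the log2 fold change was -0.27 (95% interval -1.11 to 0.57). Ldb1, the adaptor that dimerizes to loop DNA, was the steadiest of the 10, with 796, 656, 571 and 591 in WT and 676, 562, 663 and 433 in IL-6 KO. Its log2 fold change was -0.17 (95% interval -0.82 to 0.47), so that the members of the core complex ranged from -1.13 to -0.17 with none past the threshold.

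Gata1 read 288, 498, 227 and 521 normalized counts in the WT libraries and 247, 353, 603 and 139 in the IL-6 KO libraries of stroma. IL-6 KO libraries 3 and 4 held the highest and the lowest value of all 8, with the WT values between them. Between genotypes the difference was -0.30 on the log2 scale (SE 0.47, 95% interval -1.32 to 0.72, limma adjusted p = 0.878), and without IL-6 KO stroma 4 it was 0.054.

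Gata2 read 57.6, 10.8, 22.1 and 71.8 normalized counts in WT and 19.8, 177, 13.97 and 87.1 in the IL-6 KO libraries. This gene was the least abundant factor, resting on about 5.8 to 170 reads a library, and the one factor with a fold change above 0, at 0.52 (SE 0.89, 95% interval -1.41 to 2.44, limma adjusted p = 0.891). Without IL-6 KO stroma 2, the highest library, it was -0.12. The log2 ratio of Gata1 to Gata2 (1 added to each value), which rises as red cells mature, was 2.30, 5.40, 3.31 and 2.84 in the WT libraries and 3.58, 0.99, 5.33 and 0.67 in the IL-6 KO libraries. The genotypes overlapped, at 3.46 ± 1.36 and 2.64 ± 2.22 (SD, n = 4). Genes of basophils, mast cells and eosinophils, cells that use Gata2, summed to 477 to 742 normalized counts in WT and 776 to 1054 in IL-6 KO stroma over the 6 of 9 with a row, and their part in the Gata2 values was not tested.

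Klf1 read 933, 1029, 625 and 1012 normalized counts in the WT libraries and 595, 911, 1248 and 397 in the IL-6 KO libraries of stroma. As for Gata1, IL-6 KO stroma 3 was the highest and IL-6 KO stroma 4 the lowest of the 8. The log2 fold change was -0.29 (SE 0.38, 95% interval -1.11 to 0.52, limma adjusted p = 0.843), and leaving out IL-6 KO library 4 gave -0.0083, where leaving out library 3 gave -0.56. Nfe2 read 878, 1251, 767 and 1248 in WT and 233, 692, 1069 and 616 in IL-6 KO stroma. Its 3 lowest values were all in IL-6 KO libraries, but IL-6 KO stroma 3 was above 2 of the WT libraries. Between genotypes Nfe2 differed by -0.83 on the log2 scale (SE 0.43, 95% interval -1.76 to 0.11, limma adjusted p = 0.582), and it was -0.40 without IL-6 KO stroma 1.

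The repressors followed the same sign with wide intervals. Gfi1b read 137, 273, 112 and 408 normalized counts in WT and 136, 170, 71.9 and 149 in IL-6 KO stroma, which came to a log2 fold change of -0.69 (95% interval -1.75 to 0.37, limma adjusted p = 0.686), which was -0.36 without WT stroma 4. WT libraries 2 and 4 stood above every IL-6 KO library, and the other WT libraries lay within the IL-6 KO range. Bach1 read 260, 344, 409 and 443 in WT and 173, 221, 329 and 449 in IL-6 KO stroma, which came to a log2 fold change of -0.38 (95% interval -1.20 to 0.45, limma adjusted p = 0.791), with the highest value of all in an IL-6 KO library and a fold change of -0.16 without IL-6 KO stroma 1.

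Per kilobase of joined exons, WT stroma ran from Zfpm1 at 733 ± 266 normalized counts per kb (SD, n = 4) through Lmo2 (598 ± 103), Klf1 (588 ± 123), Tal1 (407 ± 91.5) and Nfe2 (347 ± 83.9) to Gata1 (157 ± 60.7), Ldb1 (142 ± 22.1), Gfi1b (127 ± 74.8), Bach1 (58.9 ± 13.05) and Gata2 (7.52 ± 5.34). Neighbours in this order lay within their spread except at the steps from Nfe2 to Gata1 and from Bach1 to Gata2. In IL-6 KO stroma the order began with Lmo2 (550.2 ± 291) and Klf1 (515 ± 244), and Zfpm1 came next at 280.1 ± 50.6. There the one step beyond the spread of its neighbours was from Ldb1 (127 ± 24.4) to Gfi1b (71.9 ± 23.1). Gata2 was last at 13.8 ± 14.1.

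The factors did not vary alike from library to library. Once genotype means were removed, log2 values of Klf1 and Gata1 had a Pearson correlation of 0.95 (Spearman 0.881) over the 8 stroma libraries, which share their library's depth and cell makeup. With Klf1, the Pearson correlation was 0.63 for Tal1, 0.61 for both Lmo2 and Ldb1 and 0.58 for Nfe2. It was 0.17 for Zfpm1, -0.02 for Gfi1b, -0.18 for Gata2 and -0.25 for Bach1. By rank (Spearman), Tal1 was as close to Klf1 as Gata1 was, at 0.881. Nfe2 was at 0.762, Lmo2 at 0.667 and Ldb1 at 0.405. For Gfi1b, Zfpm1, Bach1 and Gata2 the Spearman values were 0.238, 0.095, -0.119 and -0.19. The median Pearson correlation with Klf1 over 40 red cell genes (globins, heme synthesis, red cell membrane and other red cell genes) was 0.87. Over all 8076 genes compared it was 0.02. The 5 genes most like Klf1 were Dmtn, a protein of the red cell membrane skeleton, at 0.99, Slc43a1 and Hs6st1, both at 0.99, and Fn3k and Rpl39, both at 0.98. Those most like Gata1 were Ube2s, Fn3k, Racgap1, Tnfrsf14 and Rpl39, all at 0.98.

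The mean log2 value of the red cell genes itself was 11.37, 11.60, 11.11 and 11.62 in WT stroma 1 to 4 and 10.07, 11.19, 11.76 and 10.10 in IL-6 KO stroma 1 to 4. IL-6 KO libraries 1 and 4 were the lowest and IL-6 KO library 3 the highest. Library 3 was also the highest for Klf1 and Gata1, while the lowest for both was IL-6 KO library 4. Neutrophil genes were lowest of the IL-6 KO group in library 3, summing to 33886, 32957, 8283 and 29228 normalized counts in IL-6 KO stroma 1 to 4 and to between 8036 and 15464 in WT stroma. With the red cell mean in the fit, the log2 fold change of Tal1 was -0.37, that of Nfe2 was -0.23 and that of Zfpm1 was -1.26 (limma adjusted p = 0.450).

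**Figure D2:**
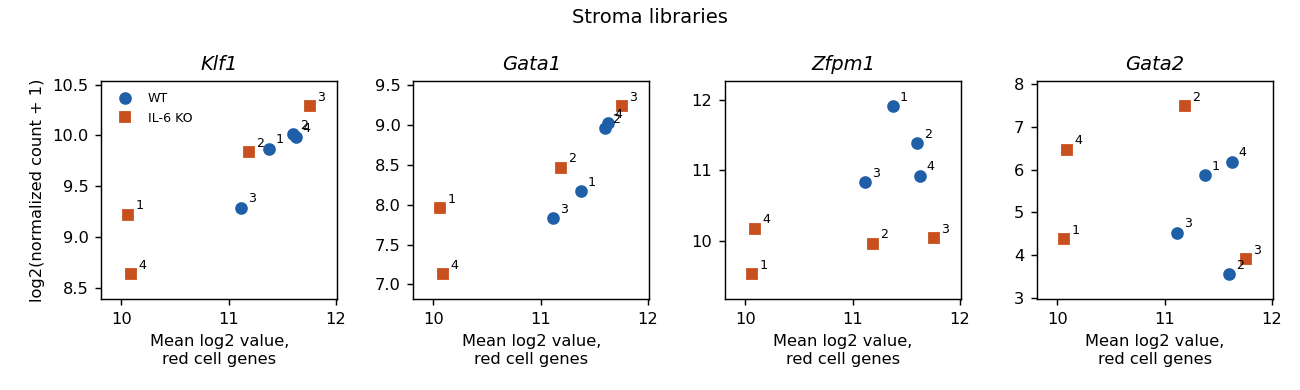
log2(normalized count + 1) of Klf1, Gata1, Zfpm1 and Gata2 against the mean log2 value of the red cell genes in each stroma library, numbered by replicate, WT in blue circles and IL-6 KO in orange squares. Klf1 and Gata1 are highest in the library with the highest red cell mean, IL-6 KO stroma 3, and the red cell means of IL-6 KO stroma 1 and 4 (10.07 and 10.10) lie below those of all WT libraries.

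Red cell genes were read from lists that were not built from targets of these factors. In stroma, limma called 0 of 40 red cell genes. An unadjusted p under 0.05 was found for 13, all lower in IL-6 KO (5.2% of all genes), and 34 of 40 were below 0 (50.6%). Of 14 red cell membrane genes, 13 were below 0 and 7 had such a p, with a median log2 fold change of -0.89 beside -0.01 for all genes. Epb41, protein 4.1 of the membrane skeleton, was at -1.42 (SE 0.30, limma adjusted p = 0.298). The 11 heme synthesis genes had a median of -0.61, with 9 below 0 and Fech, the last enzyme of the pathway, at -0.86, and the 11 other red cell genes had a median of -0.47, with Hemgn at -1.11. The 4 globin rows had a median of -0.59, and Hbb-bs was at 0.15 with values in IL-6 KO stroma of 89100 ± 72285 (SD, n = 4).

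Other factors and cofactors known to work with the 10 lay around 0 as a list in stroma. Of 36, limma called 0. At an unadjusted p under 0.05, 1 was higher and 4 were lower, beside 9.15% of all genes in either direction. Below 0 were 18 of 36 (50.6% of all genes), and the median log2 fold change was 0.02. The lowest p-values were those of Bach2 (-2.16), the lymphoid relative of Bach1, of Klf3 (-1.37), a repressor at CACCC boxes that Klf1 activates, and of Sox6 (-1.24), which represses embryonic globin, with limma adjusted p between 0.305 and 0.412. Of 9 genes that BACH1 represses, limma called 0 (0.0082% of all genes) and 8 were below 0 (50.6%). An unadjusted p under 0.05 was found for 4, all lower (5.2% of all genes). The median was -0.68, beside -0.01 for all genes. Fth1, the ferritin heavy chain, was at -1.04 and Gclm, a subunit of the enzyme that begins glutathione synthesis, at -1.26, while Bach1 itself was also below 0.

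In tumor, Nfe2 was the one factor of 8 that passed the test, being higher in leukemia from IL-6 KO mice. Limma called 19.8% of all 14493 genes there (10.6% higher and 9.16% lower), so 1 of 8 lay near the background share. A fold change below 0 was found for 3 of 8, beside 50.7% of all genes. The tumor sort was deep in B lineage RNA, with 125380 to 141190 normalized counts over 8 B lineage genes, and poor in globin RNA, at 733 to 4204. On simulated data with the tumor spread, 196 of 200 genes changed 4-fold were recovered.

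**Figure D3:**
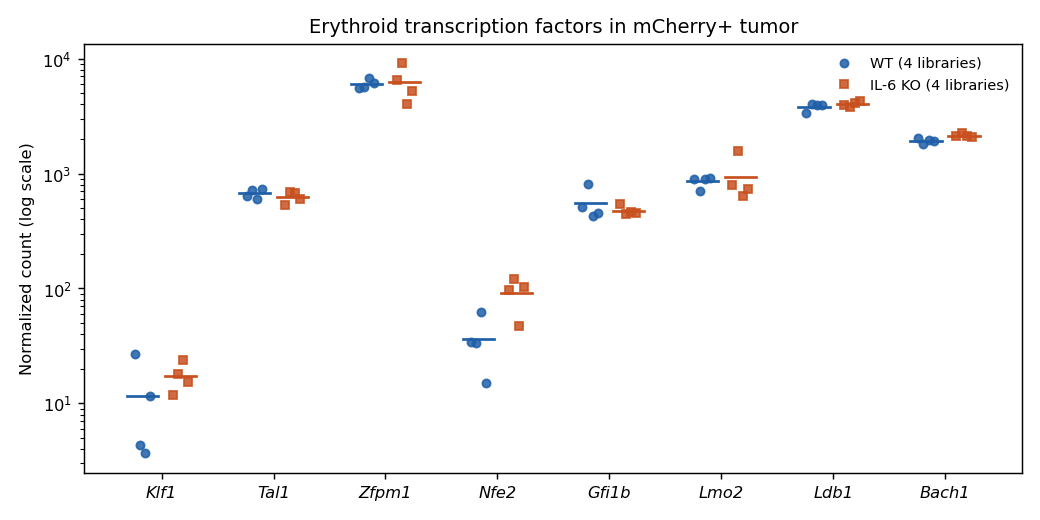
Normalized count (log scale) of the 8 factors with a row in the tumor table, in 8 tumor libraries, WT in blue circles and IL-6 KO in orange squares, with a bar at each group mean. Nfe2 and Klf1 lie far under the other 6, and Nfe2 is the one that passed the test.

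Nfe2 read 34.1, 33.5, 62.5 and 15.1 normalized counts in WT tumor 1 to 4 and 97.3, 122, 47.1 and 102 in IL-6 KO tumor 1 to 4. IL-6 KO libraries 1, 2 and 4 were above all WT libraries, and IL-6 KO library 3 was below WT library 3. The log2 fold change was 1.40 (SE 0.43, 95% interval 0.44 to 2.36, limma adjusted p = 0.0465), and the exact permutation test gave p = 0.0571. The call was lost when any one library other than WT tumor 3 or IL-6 KO tumor 3 was left out, with fold changes of 1.05 to 1.71 and limma adjusted p of 0.0309 to 0.114. With the trend of each library with GC content and transcript length removed, the log2 fold change was 1.35 and the adjusted p 0.0591.

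Neutrophil genes, like Nfe2, were higher in IL-6 KO tumor. Limma called 10 of 13 of them higher in IL-6 KO tumor, beside 10.6% of all genes. They summed to 5098, 5256, 4913 and 5642 normalized counts in WT tumor 1 to 4 and to 18056, 18919, 7822 and 16825 in IL-6 KO tumor 1 to 4. WT tumor 3 was the highest WT library for Nfe2 and the lowest for these genes, and WT tumor 4 was the reverse. IL-6 KO tumor 3 was the lowest of its group both for these genes and for Nfe2. Mpo, the granule peroxidase, rose by 1.97 on the log2 scale (SE 0.24, limma adjusted p = 0.00161). With the mean of the neutrophil genes in the fit, an alternative chosen after seeing the data, the log2 fold change of Nfe2 was 0.91 and the limma adjusted p 0.815. The neutrophil genes and the host genotype are hard to separate in 8 libraries, since that fit called 6 genes in all.

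**Figure D4:**
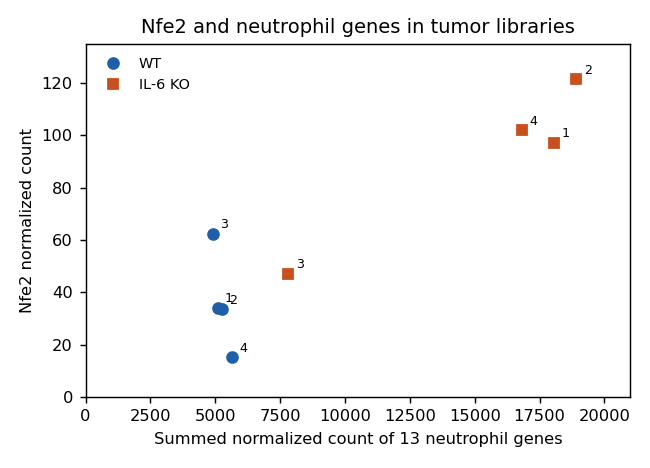
Normalized count of Nfe2 against the summed normalized count of 13 neutrophil genes in the 8 tumor libraries, numbered by replicate, WT in blue circles and IL-6 KO in orange squares. IL-6 KO tumor 3 (7822 and 47.1) lies near the WT libraries, and the other 3 IL-6 KO libraries are highest on both axes.

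Klf1 was at the edge of detection in tumor, with 26.6, 4.3, 3.7 and 11.5 normalized counts in WT and 11.8, 17.9, 23.6 and 15.3 in IL-6 KO libraries. These values stood for about 2.9 to 29.8 reads, the genotypes overlapped, and the log2 fold change was 0.88 (SE 0.59, limma adjusted p = 0.320), running from 0.53 to 1.38 over single libraries left out.

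Bach1 read 2058, 1810, 1960 and 1924 normalized counts in WT tumor and 2110, 2246, 2127 and 2063 in IL-6 KO tumor. All IL-6 KO values were above all WT values by a narrow margin, 1 of 8 factors with no overlap beside 25.6% of all genes, and the exact permutation test gave p = 0.0286, the smallest it can give. The log2 fold change was 0.14 (SE 0.07, limma adjusted p = 0.171), which became 0.27 (adjusted p = 0.0366) with the GC and length trend removed. Of 9 genes that BACH1 represses, limma called 1 lower, Fth1 at -0.37 (adjusted p = 0.00418), and 1 higher, Txnrd1 at 0.23 (adjusted p = 0.0242), with a median of 0.05. Among all genes 9.16% were called lower and 10.6% higher, so these counts lay near the background share.

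None of the other 5 factors passed the test in tumor. Zfpm1 read 5524, 5617, 6792 and 6097 normalized counts in WT and 6470, 9074, 4067 and 5221 in IL-6 KO tumor, with the WT libraries inside the IL-6 KO range and a log2 fold change of -0.01 (95% interval -0.47 to 0.45, limma adjusted p = 0.977). Its neighbour in annotation, Gm20388, held 1326 to 1737 normalized counts there. Tal1 read 638, 718, 596 and 731 in WT and 528, 691, 671 and 597 in IL-6 KO tumor, which came to a log2 fold change of -0.11 (95% interval -0.37 to 0.15). Lmo2 read 904, 709, 905 and 915 in WT and 789, 1570, 641 and 727 in IL-6 KO tumor, so that library 2 was the lowest of one genotype and the highest of the other, at 0.03 on the log2 scale (95% interval -0.52 to 0.58). Ldb1 read 3382, 4047, 3915 and 3928 in WT and 3927, 3824, 4130 and 4298 in IL-6 KO tumor, with overlap and a difference of 0.09. Gfi1b read 507, 813, 427 and 449 in WT and 539, 442, 464 and 452 in IL-6 KO tumor, with WT library 2 above all others and a log2 fold change of -0.17 (95% interval -0.59 to 0.26).

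Per kilobase, Zfpm1 led in WT tumor at 1715 ± 166 normalized counts per kb (SD, n = 4), followed by Ldb1 (829 ± 64.4), Lmo2 (396 ± 46.0), Bach1 (314 ± 16.6), Gfi1b (300.0 ± 97.8), Tal1 (153 ± 14.8), Nfe2 (12.1 ± 6.55) and Klf1 (7.53 ± 6.98). Bach1 with Gfi1b and Nfe2 with Klf1 were the neighbours within their spread, and IL-6 KO tumor had the same order, with Lmo2 and Bach1 as its one pair within the spread.

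The partner factors moved in both directions in tumor, with 9 called higher and 6 lower of 35 tested by limma and a median log2 fold change of 0.04, beside 10.6% higher and 9.16% lower among all genes. Ssbp2, which stabilizes LDB1, fell by 0.56 on the log2 scale (SE 0.09, adjusted p = 0.00449), and Bcl11a, a repressor of fetal globin that is also a B cell factor, fell by 0.47 (SE 0.08, adjusted p = 0.0068). Erg, an ETS factor of stem cells, rose by 0.36 (SE 0.06, adjusted p = 0.00631), and Mafk, a small MAF partner of NFE2 and BACH1, rose by 0.51 (SE 0.09, adjusted p = 0.00671). Of the 32 red cell genes tested in tumor, limma called 2, both lower, Bnip3l at -0.59 and Car2 at -0.27, beside 9.16% of all genes called lower, and none of the globin, heme synthesis or membrane genes, of which 3 had an unadjusted p under 0.05 (35.1% of all genes).

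**Figure D5:**
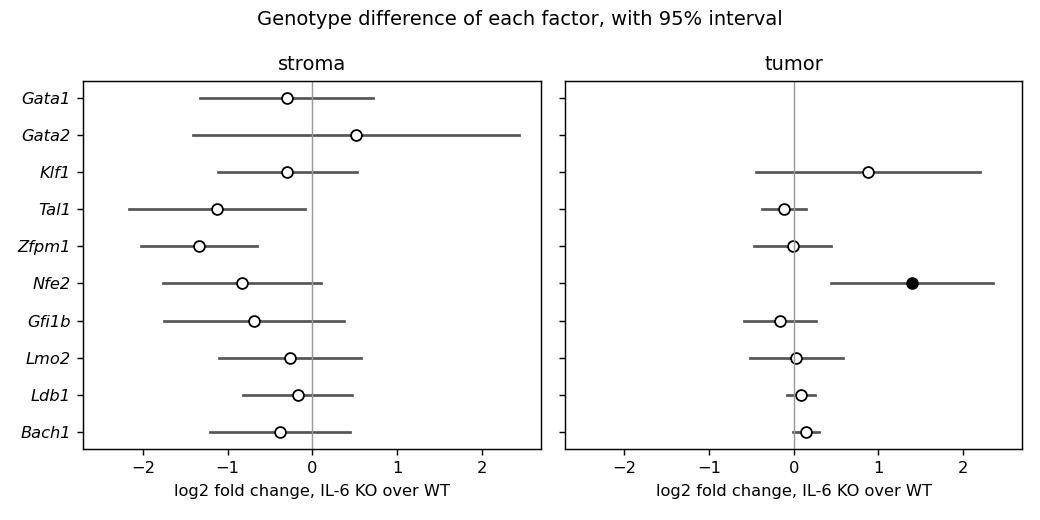
log2 fold change (IL-6 KO over WT) of each factor with its 95% interval from limma, in stroma (left) and tumor (right), a filled point marking an adjusted p under 0.05. In stroma 9 of 10 points lie left of 0, and the intervals are wider than in tumor for all factors but Klf1 and Nfe2.

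Whether host genotype differed in its effect between stroma and tumor was tested for the 8 factors in both tables. The fit treated all libraries as separate and had no term for mouse. The labels do not say whether tumor and stroma libraries of the same number share a mouse. A possible pairing is thus left out of the SEs and p-values. Limma called 0 of 8 (0.00919% of 10887 genes), and 0 of 8 had an unadjusted p under 0.05 (8.76% of genes). The difference, stroma minus tumor, was -1.33 for Zfpm1 (SE 0.71, limma adjusted p = 0.632), -1.01 for Tal1 (SE 0.52, limma adjusted p = 0.607) and -2.22 for Nfe2 (SE 1.39, limma adjusted p = 0.693). The weights averaged 4.23 in tumor and 0.237 in stroma and were the same for all genes. The residual SD of Nfe2 was 0.712 in tumor and 0.702 in stroma, and that of Klf1 was 0.889 and 0.562. For both genes these weights gave a wider SE than the separate fits imply, which limits what their p-values here can show. The Tal1 difference was -0.50 without IL-6 KO stroma 1. All 8 differences were below 0, the smallest being that of Ldb1 at -0.26 (SE 0.29). The share of all genes below 0 was not computed for this difference. Each difference also contains a stroma fold change given above, so these signs are no separate result.

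Levels cannot be compared directly between tables that were scaled apart, so each factor was placed by its percentile within a library among 11812 genes found in both. Klf1 sat at percentile 83.2 to 95.1 in stroma libraries and at 1.02 to 10.9 in tumor libraries. Tal1 sat at 75.3 to 98.2 in stroma and at 38.1 to 44.3 in tumor, Lmo2 at 88.5 to 97.7 and 41.8 to 63.1, and Nfe2 at 72.0 to 95.8 and 5.82 to 20.5. Zfpm1 (91.3 to 99.4 and 85.02 to 94.3), Ldb1 (84.4 to 92.7 and 82.2 to 86.2) and Bach1 (65.7 to 84.97 and 67.4 to 72.1) stood at similar ranks in both, with ranges that overlapped, and Gfi1b overlapped narrowly (46.1 to 83.5 and 33.9 to 46.8). Klf1 and Nfe2 were thus furthest apart between the sorted fractions, and Zfpm1 and Ldb1 were high in both. These ranks are a description with no test.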

How the data were processed

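The authors sequenced total RNA from sorted cells after ribosomal depletion with a directional kit (75 nt reads), quantified mm10 transcripts with salmon 1.3.0 and normalized the estimated counts with DESeq2 1.28.1. The deposited tables, one for tumor and one for stroma, hold these normalized counts, a scaled signal that is not whole reads, and the authors' own results of the genotype comparison (mean, log2 fold change, statistic and p-values) were deposited beside them and not used. Repeated low values, 8 to 12 in each stroma library and 31 to 41 in each tumor library, gave an estimate of the worth of 1 read. Only 1.09% to 8.28% of low values were whole multiples of it (within 0.001 of a read). Whole reads were thus not recovered, and numbers of reads are rough estimates whose highest totals exceed the depth that the paper states.

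Samples were grouped by their labels, and all 16 libraries were used. log2(normalized count + 1) of genes with a mean over 10 (12202 in stroma, 14493 in tumor) was tested with limma 3.58.1 in R 4.3.3, with a mean-variance trend, genotype as the only term, two-sided, Benjamini-Hochberg adjustment and a threshold of 0.05. The pseudocount shrinks fold changes of low genes. The compartments were scaled separately and fitted apart. The difference of their genotype effects was fitted over 10887 genes with weights estimated for each compartment. The permutation tests were exact and two-sided. The fits were tested on simulated data. The 10 genes and the lists were chosen with earlier results of these data known. The text names the 10 genes, genes with the smallest p in each list, up to 4 for red cell and partner lists and up to 2 for others, and the 5 genes most correlated with Klf1 and with Gata1 among 8076 with a mean over 50 in stroma. Some genes that this rule names are not reported here. Positions and lengths came from GENCODE vM21 on GRCm38, where 13338 of 13344 stroma and 15069 of 15080 tumor identifiers were found, and Hbb-bs was matched by identifier. BLAST 2.17.0 found no transcript of another gene with at least 97% identity to one of these genes over at least 150 nucleotides. Lmo2 and Ldb1 overlap genes on the opposite strand. Alternatives covered the pseudocount, the filter, scaling, weights, covariates, GC content and length, and each library left out. Figures were drawn with matplotlib 3.10.9 under Python 3.11.15, with pandas 2.3.3 for tables, and the permutation tests were run in R.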

Additional observations from a re-analysis of the deposited data

Results flagged for a closer look

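Lmo2 in tumor held both values that stood apart from their own group by Dixon's criterion for 4 samples (the gap to the nearest library as a share of the group's range), out of 36 groups examined, of which chance would mark about 1 in 20. In WT tumor, library 2 at 709 normalized counts was far under the other 3 (gap 0.949 of the range). In IL-6 KO tumor, library 2 at 1570 was far above the other 3 (gap 0.841 of the range). Leaving out each tumor library in turn gave Lmo2 a log2 fold change of -0.25 to 0.18, with no call.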

How the results depend on the processing

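Pseudocounts of 0.5 and 5, a filter at 0 or 50, quantile normalization and median centring changed no call and no direction of any factor tested (7 in tumor at 50, without Klf1). Nfe2 in tumor lost its call with the replicate block (limma adjusted p = 0.0935), leaving 0 of 8 factors called, and the block changed no other call. Within a compartment, WT and IL-6 KO libraries of the same number did not deviate together (correlations of -0.03 to 0.13). The numbers were therefore not taken as pairs of genotypes. Whether tumor and stroma libraries of the same number deviated together was not tested. With the neutrophil mean as a covariate, chosen after seeing the data, 0 factors and 6 genes in all were called in tumor. Leaving out one library gave 0 to 1 factors and 1572 to 3328 genes called in tumor, 1 to 3 genes in stroma and 0 to 8 genes for the difference between compartments. Array weights called 4 stroma genes, the red cell covariate 2, equal weights 3 genes for the difference, and the unadjusted exact permutation test 1 factor in each compartment, Zfpm1 in stroma and Bach1, not Nfe2, in tumor. Some uncalled fold changes turned sign. In tumor these were Lmo2 with array weights (-0.20), GC and length removed (-0.10) and the neutrophil covariate (-0.91), Ldb1 with GC and length removed (-0.061) and Zfpm1 with the red cell covariate (0.037). In stroma they were Lmo2 with array weights (0.0042), Gata1, Klf1 and Lmo2 with the red cell covariate (0.40, 0.26 and 0.24), and Gata1, Gata2 and Klf1 with the neutrophil covariate (0.13, -0.21 and 0.081). Over single libraries left out, ranges that crossed 0 were -0.65 to 0.054 for Gata1, -0.12 to 1.07 for Gata2 and -0.55 to 0.020 for Lmo2 in stroma, and -0.27 to 0.040 for Gfi1b, -0.25 to 0.18 for Lmo2 and -0.21 to 0.17 for Zfpm1 in tumor. The cause was not tested. The count of stroma factors below 0 was 8 to 10 over libraries left out and 6 with the red cell covariate. Longest-transcript lengths moved 12 of 36 levels per kb by more than 1 SD. Gata2 in stroma and both Klf1 and Nfe2 in tumor rest on few reads in some libraries.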

Other observations

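Megakaryocyte genes, which share Gata1, Zfpm1, Gfi1b and Nfe2 with red cells, had higher sums in most IL-6 KO stroma libraries. The 6 of 12 with a row summed to 229 to 367 normalized counts in WT and 360 to 1279 in IL-6 KO stroma. Limma called 0 of the 4 tested, 2 of which had an unadjusted p under 0.05, and 1 of the 4 had a fold change below 0. Itga2b, the alpha chain of the fibrinogen receptor, was at 102 ± 71.9 in WT and 416 ± 264 in IL-6 KO stroma (SD, n = 4), a log2 fold change of 2.16 (SE 0.59, adjusted p = 0.324). In tumor the 4 of 12 with a row summed to 56.7 to 228 in WT and 41.4 to 72.1 in IL-6 KO, and 1 was called, Vwf at -1.93 (SE 0.60, limma adjusted p = 0.0487). Among all genes in tumor, 9.16% were called lower.

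Of stem and progenitor genes, limma called 1 of 4 in tumor, Meis1, which fell by 1.89 on the log2 scale (SE 0.37, adjusted p = 0.00839), from 142 ± 75.3 to 35.8 ± 13.8 normalized counts (SD, n = 4), and 0 of 5 in stroma, with 0 at an unadjusted p under 0.05. Monocyte and macrophage genes held 2 calls of 9 in tumor, both higher, led by Ly6c2 at 2.08 (SE 0.28, limma adjusted p = 0.00219). Of the genes of basophils, mast cells and eosinophils, 1 of 2 was called in tumor, Hdc, the histamine-making enzyme, which rose by 0.88 (SE 0.24, limma adjusted p = 0.0294). Of 8 B lineage genes, 1 was called higher and 1 lower in tumor, Vpreb1 at 0.53 and Ebf1 at -0.30. Among all genes in tumor, limma called 19.8%, with 10.6% higher and 9.16% lower. In stroma it called 0.0082%, and 9.15% had an unadjusted p under 0.05. With so few genes in each list, these counts are not read as a change in any cell type.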
